A study of Mus musculus with 10 samples.

Results

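The cell cycle and proliferation genes described here are 38 genes of cyclins, mitotic kinases, DNA replication and chromosome segregation, chosen by gene name out of the 24391 gene names in the count tables, and all 38 were found. RNA was sequenced from the whole hippocampus of both sides, 1 library per mouse, in 10 male mice, 10 to 14 weeks old, of the strain spelled C56BL/6J in the study's methods. SAH and Sham mice were sampled 4 days after surgery. In 4 SAH mice a filament perforated the circle of Willis, the arterial ring at the base of the brain, and so caused a subarachnoid hemorrhage. In 3 Sham mice the filament was advanced without a puncture, and 3 Naive mice had no surgery. Control denotes the 6 Sham and Naive mice together. Surgery was done under isoflurane, no group is labelled as treated with a drug, and the study kept SAH mice only where cerebral blood flow dropped at perforation. The site of bleeding lies outside the hippocampus. Counts on genes summed to between 19743388 and 27254655 per mouse.

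A cell divides by passing through G1, S, G2 and M phases. D and E cyclins drive G1 cells past the retinoblastoma protein, which otherwise holds back the E2F transcription factors. E2F factors then switch on the genes of DNA replication, such as the MCM helicase subunits. Later a second set of genes, those of mitosis, is switched on by a complex that binds the CHR element. Promoters of this second set often hold CCAAT boxes near the CHR element. In the adult mouse hippocampus most neurons do not divide. Progenitors of the dentate gyrus, oligodendrocyte precursors and, after injury, microglia, astrocytes and vascular cells are the cells known to enter the cycle there.

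The promoters of 3 mitotic members and 1 replication member are shown because mitotic and replication members are described as separate sets further on. RefSeq promoter windows (GRCm38.p6, 250 bases before to 50 bases after the gene start) were matched for 29 of the 38 members. Each sequence below runs 5′ to 3′ in the direction of transcription and gives the first 280 bases of the window. In the first 3, capitals mark only the CHR letters TTTGAA and the CCAAT box, each on either strand. In the last, capitals mark only the E2F letters, TTTGGCGC or TTTCGCGC on either strand, and the overlapping pair of matches reads as a single run.
Mki67 (proliferation marker Ki-67, chr7:135716350-135716629, minus strand): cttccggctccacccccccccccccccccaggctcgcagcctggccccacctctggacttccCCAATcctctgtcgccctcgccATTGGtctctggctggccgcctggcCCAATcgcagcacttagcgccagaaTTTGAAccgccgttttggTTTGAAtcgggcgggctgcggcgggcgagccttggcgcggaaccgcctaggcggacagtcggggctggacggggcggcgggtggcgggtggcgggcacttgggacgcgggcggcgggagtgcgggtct
Top2a (DNA topoisomerase II alpha, chr11:99024160-99024439, minus strand): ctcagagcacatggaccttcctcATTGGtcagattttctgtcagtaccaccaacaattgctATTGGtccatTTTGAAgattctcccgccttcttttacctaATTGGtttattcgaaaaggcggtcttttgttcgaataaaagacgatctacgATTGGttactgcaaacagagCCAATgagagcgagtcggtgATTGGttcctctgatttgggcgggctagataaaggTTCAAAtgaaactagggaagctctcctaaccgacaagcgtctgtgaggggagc
Cdk1 (the kinase that starts mitosis, chr10:69352883-69353162, minus strand): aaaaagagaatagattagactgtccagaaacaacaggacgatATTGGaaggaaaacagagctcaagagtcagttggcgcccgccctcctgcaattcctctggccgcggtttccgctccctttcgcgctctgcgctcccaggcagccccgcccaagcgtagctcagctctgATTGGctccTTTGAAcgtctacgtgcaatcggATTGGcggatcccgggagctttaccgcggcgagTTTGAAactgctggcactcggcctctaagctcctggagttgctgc
Mcm6 (a subunit of the replicative helicase, chr1:128359676-128359955, minus strand): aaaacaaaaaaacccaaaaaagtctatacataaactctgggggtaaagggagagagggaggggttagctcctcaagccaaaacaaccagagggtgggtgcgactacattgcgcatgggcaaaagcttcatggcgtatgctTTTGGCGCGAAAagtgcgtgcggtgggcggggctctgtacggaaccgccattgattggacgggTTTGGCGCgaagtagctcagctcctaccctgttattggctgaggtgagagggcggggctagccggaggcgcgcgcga

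Mki67, Top2a and Cdk1 each held 2 CHR matches in these stretches, with 3, 6 and 3 CCAAT boxes. Over the whole 300-base windows, the CHR letters were found in 11 of the 16 matched mitotic members (68.8%) and in 1 of the 10 matched replication members (10.0%). They were found for 20.2% of all 27025 gene symbols with a promoter, each counted if any of its promoters held a match. CCAAT boxes were found in 87.5% of mitotic members, 80.0% of replication members and 41.1% of all gene symbols. E2F letters (TTTCCCGC, TTTGGCGC, TTTCGCGC or TTTGCCGC, on either strand) were found in 5 of the 10 replication members (50.0%). They were found in 1 of the 16 mitotic members (Cdk1, 6.2%) and in 2.6% of all gene symbols. These matches are descriptions of the letters in the window and not measured binding sites.

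Median levels differed between the roles, with overlap between them. Levels between genes are given as FPKM, the counts scaled to library size and divided by the exon length of the gene. Pcna, the sliding clamp of DNA polymerases that also serves DNA repair, was the highest at 25.3 ± 1.15 FPKM (SD, n = 10), followed by the D cyclins Ccnd2 at 18.6 ± 2.35, Ccnd1 at 16.7 ± 1.32 and Ccnd3 at 10.2 ± 1.06 FPKM. The 5 G1 and G1/S cyclins had a median of 10.2 FPKM and the 11 genes of replication licensing and DNA synthesis a median of 2.00 FPKM. The 20 mitotic members formed 4 groups with lower medians, of 0.333 FPKM (S and G2/M cyclins with Cdk1), 0.325 FPKM (mitotic kinases, checkpoint and exit), 0.363 FPKM (kinetochore, motors and spindle) and 0.519 FPKM (Mki67 and Top2a). Of the other members, Cdc6 at 0.201 FPKM, Foxm1 at 0.419 FPKM and Tyms at 0.567 FPKM lay within the range of the mitotic members, and Rrm2 at 0.882 FPKM lay just above it. The lowest were Bub1, a spindle checkpoint kinase, at 0.101 ± 0.0592 FPKM, and Melk, a kinase of dividing progenitor cells, at 0.134 ± 0.0941 FPKM. Neighbours in this order overlapped in most places, while every mouse had more Pcna than any mitotic member. A mean above 1 FPKM was reached by 14 of the 38 members.

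**Figure D1:**
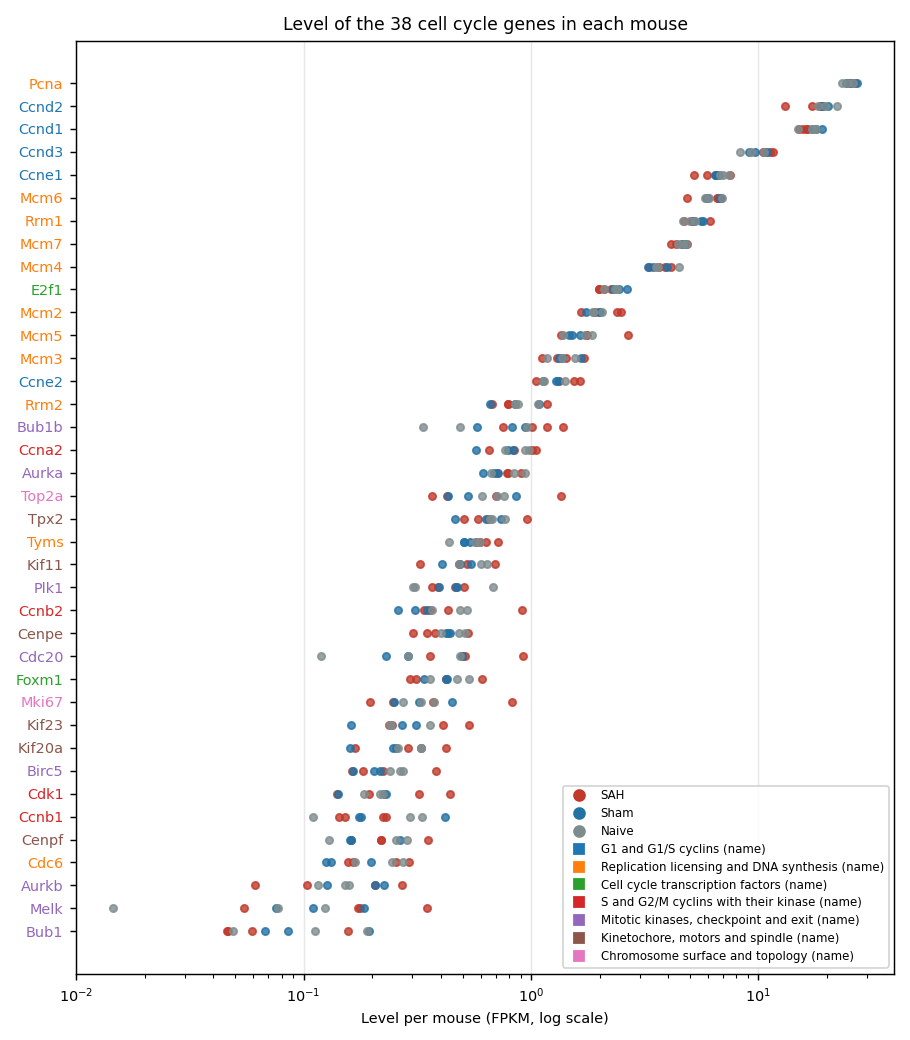
Level of each of the 38 members in each of the 10 mice, in FPKM on a log scale, with members ordered by their mean and points coloured by group; the colour of a gene name gives its role. Pcna and the D cyclins are highest, at 10.2 to 25.3 FPKM on average, and Bub1 and Melk lowest, at 0.101 and 0.134 FPKM.

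No member was called in SAH against control. By edgeR's quasi-likelihood test with Benjamini-Hochberg adjustment over all genes, 0 of the 37 members tested passed an adjusted p of 0.10, against 4.68% of all 14993 genes tested (3.13% higher and 1.54% lower in SAH). Aurkb, the kinase of the chromosomal passenger complex, had 3 to 11 counts per mouse and did not pass the filter on low counts. DESeq2 also called 0 of the 38 members. At an unadjusted p under 0.05 stood 4 members by edgeR (Ccnd2, Ccnd3, Bub1b and Cdc20) and 4 by DESeq2, and edgeR's share over all genes was 17.0%. The count by edgeR ran from 2 (without Naive mouse 9 or 10) to 6 (without SAH mouse 1 or 4 or Naive mouse 8) with each mouse left out in turn. For 0 members did the 4 SAH mice all lie beyond the 6 control mice, which was so for 5.20% of all genes. The median log2 fold change over the tested members was 0.05, and over all genes −0.0024.

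The precision differed between roles. The 95% confidence interval of the log2 fold change lay within −1 to 1 for 30 of the 37 tested members and within −0.5 to 0.5 for 18. All 5 G1 and G1/S cyclins and 8 of the 11 replication genes had an interval within −0.5 to 0.5, so for these genes a difference of that size between SAH and control was outside the interval. Of the 19 tested mitotic members 12 had an interval within −1 to 1 and 4 within −0.5 to 0.5. For Melk, Cdc20, Bub1b, Bub1, Ccnb1, Ccnb2 and Cdk1 a 2-fold change lay within the interval.

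**Figure D2:**
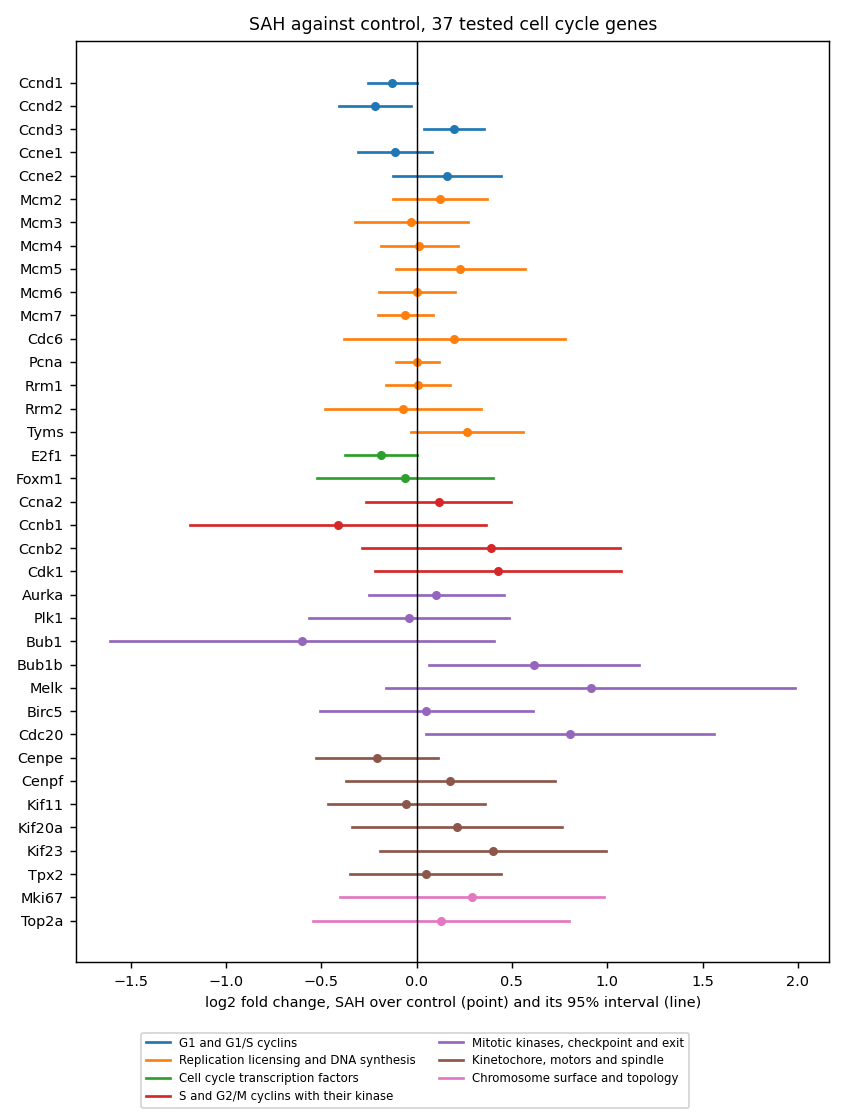
Log2 fold change of SAH over control (points) with its 95% confidence interval (lines) for the 37 tested members, coloured by role. The intervals of the G1 cyclins and of most replication genes are narrow and near 0, whereas those of Melk, Bub1 and Ccnb1 span more than 1 log2 unit.

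Among the G1 cyclins, the partners of Cdk4 and Cdk6, Ccnd1 (chromosome 7, 152115836 to 152125830, mm9) had 59.4, 62.2, 57.4 and 61.8 CPM (counts scaled to library size after TMM normalization) in SAH mice 1 to 4, 72.1, 67.9 and 65.6 CPM in Sham mice 5 to 7 and 56.5, 67.9 and 64.9 CPM in Naive mice 8 to 10. The SAH mice lay below the Sham mice and within the range of the Naive mice. Its log2 fold change in SAH against control was −0.13 (SE 0.059, edgeR adjusted p = 0.296). In SAH against Sham it was −0.19 (SE 0.066, 95% CI −0.33 to −0.04, adjusted p = 0.354). Ccnd2 (chromosome 6, 127075727 to 127101066) had 98.8, 109, 75.5 and 107 CPM in SAH mice, 116, 111 and 110 CPM in Sham mice and 113, 128 and 105 CPM in Naive mice. SAH mouse 3 was the lowest of the 10 and SAH mouse 1 came next, while SAH mice 2 and 4 lay within the range of the controls. The log2 fold change of Ccnd2 was −0.22 (SE 0.087, 95% CI −0.41 to −0.03, adjusted p = 0.221), and −0.11 without SAH mouse 3. Ccnd3 (chromosome 17, 47642000 to 47736637) had the opposite sign. Its levels were 23.6, 25.5, 24.3 and 26.1 CPM in SAH, 21.8, 20.4 and 24.6 CPM in Sham and 20.9, 23.9 and 18.7 CPM in Naive mice. The SAH mice were at the upper end, with Sham mouse 7 and Naive mouse 9 among them. On the log2 scale SAH differed from control by 0.20 (SE 0.074, 95% CI 0.036 to 0.35, adjusted p = 0.195), the lowest adjusted p of any member in this comparison. The E cyclins, which act with Cdk2 at the entry into S phase, had log2 fold changes of −0.11 (Ccne1) and 0.16 (Ccne2), with adjusted p = 0.554 and 0.565.

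None of the 11 genes of DNA replication was called, and the intervals of Mcm5, Cdc6 and Tyms reached beyond 0.5. Pcna (chromosome 2, 132075022 to 132078916) had 31.4, 31.2, 33.5 and 31.4 CPM in SAH mice, 30.6, 32.6 and 34.2 CPM in Sham mice and 31.2, 29.4 and 32.7 CPM in Naive mice. The groups overlapped throughout, and the log2 fold change of 0.0031 had a 95% CI from −0.11 to 0.12 (SE 0.052, adjusted p = 0.984). The 6 MCM subunits had log2 fold changes between −0.06 (Mcm7) and 0.23 (Mcm5). Those of Rrm1 and Rrm2, the subunits of the enzyme that makes deoxyribonucleotides, were 0.0094 and −0.07, that of Tyms, which makes thymidylate, was 0.26 (adjusted p = 0.351), and that of Cdc6, which loads the helicase, was 0.20. The transcription factors of the cycle had negative values that did not pass the test: E2f1 −0.19 (SE 0.087, adjusted p = 0.295) and Foxm1, which drives mitotic genes, −0.06 (adjusted p = 0.913). The table's annotation overlaps Foxm1 with another gene on the same strand, and read pairs on both were not counted.

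Among the cyclins of G2 and M, Ccnb1 and Ccnb2 activate Cdk1. Cdk1 (chromosome 10, 68799383 to 68815660) had 1.26, 0.920, 0.556 and 0.400 CPM in SAH mice, 0.660, 0.404 and 0.644 CPM in Sham mice and 0.527, 0.617 and 0.637 CPM in Naive mice. SAH mice 1 and 2 were the highest of the 10 and SAH mouse 4 the lowest. This gave a log2 fold change of 0.43 (SE 0.300, 95% CI −0.22 to 1.07, adjusted p = 0.496), which was 0.13 without SAH mouse 1 and 0.66 without SAH mouse 4. Ccnb2 (chromosome 9, 70255496 to 70269361) had 1.40, 0.662, 0.556 and 0.520 CPM in SAH mice, 0.537, 0.478 and 0.402 CPM in Sham mice and 0.752, 0.566 and 0.806 CPM in Naive mice. All SAH mice but the first lay among the controls. Its log2 fold change was 0.39 (SE 0.315, adjusted p = 0.558) and −0.02 without SAH mouse 1. Ccnb1 (chromosome 13, 101548694 to 101556441), with 6 to 24 counts per mouse, had 0.532, 0.331, 0.354 and 0.520 CPM in SAH mice, 0.413, 0.404 and 0.965 CPM in Sham mice and 0.677, 0.771 and 0.255 CPM in Naive mice. Its log2 fold change was −0.41 (SE 0.360, adjusted p = 0.588) and −0.20 without Sham mouse 7, and the SAH mice lay within the range of the controls.

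The kinases, checkpoint proteins and exit factors of mitosis held the largest fold changes among the members, in both directions and at low counts. Melk (chromosome 4, 44313789 to 44377547) had 21, 14, 10 and 4 counts in SAH mice, 13, 6 and 8 counts in Sham mice and 6, 7 and 1 counts in Naive mice. SAH mouse 1 was the highest and the mice below it were mixed. In CPM this gave a log2 fold change of 0.91 (SE 0.498, 95% CI −0.16 to 1.99, adjusted p = 0.375), and of 0.46 without SAH mouse 1. Cdc20 (chromosome 4, 118105506 to 118109948), the activator of the complex that ends mitosis, had 1.64, 0.883, 0.909 and 0.640 CPM in SAH mice, 0.413, 0.515 and 0.885 CPM in Sham mice and 0.865, 0.514 and 0.212 CPM in Naive mice. SAH mice 1 and 3 were above all controls, SAH mouse 2 was level with Sham mouse 7 and Naive mouse 8, and SAH mouse 4 was below them. The log2 fold change of Cdc20 was 0.81 (SE 0.352, 95% CI 0.048 to 1.56, adjusted p = 0.262), and 0.49 without SAH mouse 1. Bub1b (chromosome 2, 118423947 to 118467328), the BubR1 protein of the spindle checkpoint, had 4.30, 2.76, 5.05 and 3.72 CPM in SAH mice, 3.47, 3.01 and 2.13 CPM in Sham mice and 3.54, 1.23 and 1.78 CPM in Naive mice. SAH mice 1, 3 and 4 were above all controls and SAH mouse 2 lay among them. Bub1b differed by 0.62 on the log2 scale (SE 0.256, 95% CI 0.066 to 1.17, adjusted p = 0.240), and in SAH against Naive it was 0.81 (SE 0.315, adjusted p = 0.246). Bub1 (chromosome 2, 127625936 to 127657595), which also acts in the spindle checkpoint, had 4 to 14 counts per SAH mouse and 5 to 21 per control mouse. Its levels were 0.677, 0.257, 0.202 and 0.200 CPM in SAH mice, 0.371, 0.294 and 0.845 CPM in Sham mice and 0.489, 0.823 and 0.212 CPM in Naive mice. Between SAH and control Bub1 differed by −0.60 on the log2 scale (SE 0.468, adjusted p = 0.544), and −1.15 (adjusted p = 0.220) without SAH mouse 1. Aurka, Plk1 and Birc5 had log2 fold changes of 0.10, −0.04 and 0.05.

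The kinetochore and motor genes had log2 fold changes between −0.21 (Cenpe, adjusted p = 0.506) and 0.40 (Kif23, adjusted p = 0.487). Kif23 (chromosome 9, 61765085 to 61794606), a motor of the dividing cell's midzone, had 1.40, 0.809, 1.82 and 0.839 CPM in SAH mice, 1.07, 0.551 and 0.925 CPM in Sham mice and 0.827, 0.823 and 1.23 CPM in Naive mice. SAH mice 1 and 3 were above the controls and the other 2 within them, and the value of 0.40 became 0.15 without SAH mouse 3. Cenpf, Kif11, Kif20a and Tpx2 lay between these values, at 0.18, −0.05, 0.21 and 0.05. Cenpf and Tpx2 changed sign without SAH mouse 1, Tpx2 also without Sham mouse 5, and Kif11 without SAH mouse 3 or Naive mouse 9.

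Mki67 and Top2a are the usual markers of dividing cells. Mki67 (chromosome 7, 142881471 to 142908062) had 172, 102, 39 and 62 counts in SAH mice, 61, 88 and 113 counts in Sham mice and 88, 73 and 65 counts in Naive mice. In CPM these were 8.32, 3.75, 1.97 and 2.48 in SAH, 2.52, 3.24 and 4.55 in Sham and 3.31, 3.75 and 2.76 in Naive mice. SAH mouse 1 was the highest of the 10 mice, and SAH mice 3 and 4 were the lowest. The means were 4.13 ± 2.89 CPM in SAH (SD, n = 4) and 3.35 ± 0.728 CPM in control (SD, n = 6), which differed by 0.29 on the log2 scale (SE 0.322, 95% CI −0.40 to 0.98, adjusted p = 0.675). Top2a (chromosome 11, 98854261 to 98885503) had 7.06, 3.64, 2.22 and 1.92 CPM in SAH mice, 2.77, 2.24 and 4.47 CPM in Sham mice and 3.69, 3.96 and 3.18 CPM in Naive mice. The order of the SAH mice was nearly the same, with mouse 1 the highest of the 10 and mouse 4 the lowest. Its log2 fold change was 0.13 (SE 0.311, 95% CI −0.54 to 0.80, adjusted p = 0.861). Without SAH mouse 1 the log2 fold changes of both genes turned negative, to −0.27 for Mki67 (adjusted p = 0.528) and −0.36 for Top2a (adjusted p = 0.436). Without SAH mouse 3 or 4 they were 0.51 and 0.48 for Mki67 and 0.30 and 0.35 for Top2a. Top2a also moved to 0.077, 0.031 and 0.23 without Sham mouse 5, 6 or 7.

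The same mouse stood apart over the mitotic members as a set. The summed level of the 20 mitotic members was 52.4 CPM in SAH mouse 1 and 31.9, 29.4 and 27.6 CPM in SAH mice 2 to 4. It was 28.7, 26.9 and 35.0 CPM in Sham mice and 36.0, 33.8 and 27.8 CPM in Naive mice. SAH mouse 1 was 1.46 times the next highest mouse, and the other 3 SAH mice lay within the range of the controls. It was the highest of the 10 mice for 14 of the 20 mitotic members and the lowest for 0 of them, and it was the highest for 8.30% of all genes tested. It was also the highest for 6 of the 11 replication members. Its ratio to the mean of the other SAH mice ran from 1.09 (Plk1) to 3.08 (Bub1) over the 20 mitotic members, with a median of 1.71. The ratio was 3.04 for Mki67, 2.72 for Top2a, 1.12 for Bub1b and 1.19 for Aurka. Over the other 18 members it ran from 0.704 (Cdc6) to 1.78 (Foxm1), with a median of 1.12. This mouse was singled out after its values were seen. By Dixon's outlier test within the SAH mice, at its 95% limit, its summed level was not flagged. With all mice, 14 of the 19 tested mitotic members had a positive log2 fold change in SAH against control, with a median of 0.13. Over all genes tested, 7361 of 14993 were positive. It was 15 of 20 mitotic members against Sham (median 0.26) and 10 of 20 against Naive (median 0.0092). In SAH against control without SAH mouse 1, 8 of 20 were positive, with a median of −0.07, against 7494 of 15123 genes. Over all tested members the median then turned from 0.05 to −0.07, and the G1 cyclins had medians of −0.11 and −0.12 with and without it.

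**Figure D3:**
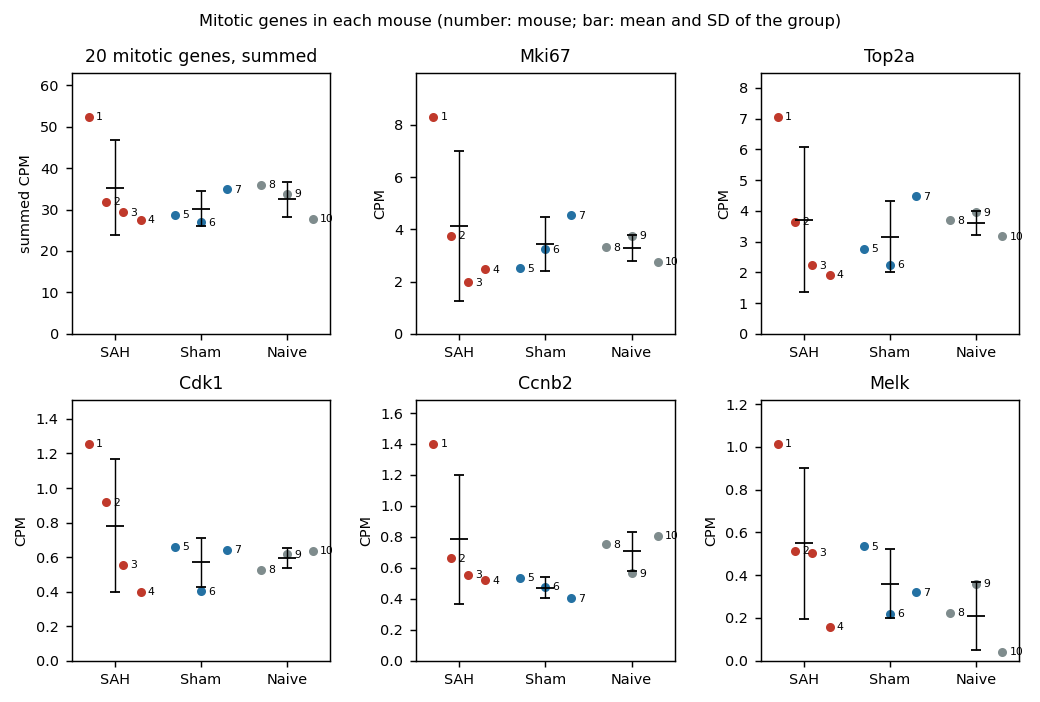
Summed level of the 20 mitotic members and levels of Mki67, Top2a, Cdk1, Ccnb2 and Melk in each mouse, in CPM, with the number of the mouse beside its point and the mean and SD of each group in black. SAH mouse 1 is the highest point in all 6 panels, at 52.4 CPM for the sum, and the other SAH mice lie among or near the controls.

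SAH mouse 1 lay within the range of the other 9 mice in depth and in 6 of the 7 marker lists given here for cell types that can divide in the hippocampus. Its counts summed to 20611490. The summed level of 7 genes of neural progenitors and immature neurons (Nes, Eomes, Neurog2, Tfap2c, Sox11, Igfbpl1 and Dcx) was 65.5 CPM in it, 54.2 to 65.2 CPM in the other SAH mice and 71.3 to 82.4 CPM in control mice. For 6 genes of oligodendrocyte precursors it was 222 CPM, against 195 to 220 CPM in the other SAH mice and 219 to 258 CPM in control. For 7 microglial genes it was 433 CPM, against 393 to 471 CPM and 361 to 405 CPM. For 7 endothelial genes it was 127 CPM, against 159 to 248 CPM and 113 to 158 CPM. For 5 astrocyte genes it was 5070 CPM, against 4391 to 5451 CPM and 4359 to 4795 CPM, and for 4 genes of meningeal fibroblasts 131 CPM, against 81.1 to 144 CPM and 73.2 to 105 CPM. In its summed level of 6 genes of monocytes and border macrophages it was the highest, with 20.5 CPM against 16.0 to 18.9 CPM in the other SAH mice and 5.45 to 9.78 CPM in control. The part of these cells in the mitotic values was not tested, and in a whole tissue fewer cells of a type and less RNA per cell cannot be told apart.

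Between SAH and control as groups, markers of these cells did differ while the cycle genes were not called. Of the 6 tested genes of neural progenitors and immature neurons 2 fell, Sox11 by 0.48 on the log2 scale (edgeR adjusted p = 0.0096) and Dcx, a microtubule protein of immature neurons, by 0.40 (adjusted p = 0.052), and 5 of the 6 had a negative value. Of the 6 genes of oligodendrocyte precursors 0 passed the test and 5 had a negative value, with a median of −0.20. Genes of mature oligodendrocytes fell in 6 of 6 cases, with summed levels of 4394 to 5621 CPM in SAH and 6453 to 8994 CPM in control. Higher in SAH were 2 of 7 microglial, 3 of 7 endothelial, 3 of 4 meningeal fibroblast, 1 of 5 pericyte and smooth muscle, 1 of 5 astrocyte and 1 of 4 dentate granule neuron genes, and all 3 tested genes of monocytes and border macrophages. Over all genes tested, 3.13% were called higher and 1.54% lower. In SAH against Sham, calls were made for 0 of 6 progenitor, 0 of 7 microglial, 1 of 7 endothelial and 2 of 4 meningeal fibroblast genes. They were made for 0 of 5 pericyte and smooth muscle, 1 of 5 astrocyte and 0 of 4 dentate granule neuron genes. Monocytes and border macrophages had 3 of 4 and mature oligodendrocytes 5 of 6, against 0.720% of all genes. Genes of the choroid plexus, a tissue next to the hippocampus, had summed levels of 99.6, 213, 1213 and 857 CPM in SAH mice, 209, 56.1 and 822 CPM in Sham mice and 66.8, 43.9 and 52.3 CPM in Naive mice. SAH mice 3 and 4 and Sham mouse 7 were high. In SAH against control 0 of these 6 genes were called, and in SAH against Naive 1 was, Ttr (log2 fold change 4.30, edgeR adjusted p = 0.087), with a median over the 6 genes of 2.23. The part of choroid plexus tissue in the values of the cycle genes was not tested. The 5 neuronal genes, at 6347 to 7027 CPM, included 0 calls, the 6 T and NK cell genes had 1 to 8 counts in all per mouse, and 4 of the 5 erythroid genes, the globins Hba-a1, Hba-a2, Hbb-b1 and Hbb-b2, are listed at 0 in every mouse.

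The pairwise comparisons, which share the SAH or the Sham or Naive mice, also called no member. In SAH against Sham 0 of 38 passed, against 0.720% of all genes, and Ccnd1 and E2f1 had an unadjusted p under 0.05, against 9.69% of all genes and 1 member by DESeq2. In SAH against Naive 0 of 38 passed, against 2.99% of all genes, and Ccnd2, Ccnd3 and Bub1b had an unadjusted p under 0.05, against 14.8% of all genes and 3 members by DESeq2. In Sham against Naive 0 of 38 passed, against 0.00661% of all genes, and 0 members had an unadjusted p under 0.05 by edgeR and by DESeq2, against 2.02% of all genes by edgeR. Median log2 fold changes over the members were 0.13, −0.0074 and −0.03 in this order. Without SAH mouse 1 the first became −0.04 and the second −0.09. The largest single values were 0.73 for Cdc20 in SAH against Sham (adjusted p = 0.623), 1.38 for Melk in SAH against Naive (95% CI −0.03 to 2.79, adjusted p = 0.346), and 0.80 for Melk in Sham against Naive (95% CI −0.77 to 2.36).

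The regulators around these members are given from further lists of cell cycle genes. Of 3 cyclin-dependent kinases of G1 and S, 3 retinoblastoma family genes, 8 tested further E2F and DP factors, 35 further replication genes and 42 further mitotic genes, 0 passed an adjusted p of 0.10 in SAH against control, and 0, 0, 0, 2 and 2 of them had an unadjusted p under 0.05. Over all genes tested these shares were 4.68% and 17.0%. Median log2 fold changes of these lists lay between −0.04 and 0.09. Cdk4, the main partner of the D cyclins in many tissues, had 40.6, 43.1, 30.5 and 39.5 CPM in SAH mice, 43.2, 41.2 and 44.3 CPM in Sham mice and 45.0, 40.8 and 42.4 CPM in Naive mice. SAH mouse 3 was the lowest, and the log2 fold change was −0.15 (SE 0.078, adjusted p = 0.337). Cdk6, with 0.387, 0.662, 0.909 and 1.08 CPM in SAH mice, 0.784, 0.515 and 0.644 CPM in Sham mice and 0.752, 0.411 and 0.679 CPM in Naive mice, differed by 0.26 on the log2 scale (adjusted p = 0.664). Rb1, the retinoblastoma protein, had 50.9, 46.5, 50.2 and 52.9 CPM in SAH mice, 48.5, 48.3 and 51.8 CPM in Sham mice and 46.9, 47.5 and 47.0 CPM in Naive mice. The means were 50.1 ± 2.70 CPM in SAH (SD, n = 4) and 48.3 ± 1.83 CPM in control (SD, n = 6), a log2 difference of 0.05 (adjusted p = 0.611). SAH mouse 1 was the highest of the 10 mice for 21 of the 44 further mitotic genes and for 7 of the 37 further replication genes, against 8.30% of all genes tested. The summed level of the 44 further mitotic genes did not set this mouse apart. It was 316.3 CPM in SAH mouse 1, 292.4, 316.4 and 305.3 CPM in SAH mice 2 to 4, and 278.0 to 301.8 CPM in control mice.

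Calls were made for 2 genes that restrain the cycle, 1 of 6 tested inhibitors of cyclin-dependent kinases and 1 of 10 genes of growth arrest and DNA damage, against 3.13% of all genes called higher and 1.54% called lower. Of the inhibitors, Cdkn1c (p57), which is found in cells that have left the cycle or rest, rose. Its levels were 5.13, 4.52, 5.31 and 5.88 CPM in SAH mice, 3.71, 3.90 and 4.38 CPM in Sham mice and 3.80, 2.83 and 3.01 CPM in Naive mice. Every SAH mouse was above every control mouse. The log2 fold change was 0.52 (SE 0.132, edgeR adjusted p = 0.054) against control, 0.69 (adjusted p = 0.036) against Naive and 0.38 (adjusted p = 0.399) against Sham. The call against control was lost without SAH mouse 4 (adjusted p = 0.174) and without Naive mouse 8, 9 or 10 (adjusted p = 0.107, 0.103 and 0.116). Of the growth arrest genes, Btg2, an antiproliferative early response gene, fell. It had 22.0, 18.9, 19.7 and 20.9 CPM in SAH mice, 23.7, 25.9 and 22.3 CPM in Sham mice and 28.9, 30.3 and 41.5 CPM in Naive mice. Every SAH mouse was below every control mouse, and Sham mice lay below Naive mice. Its log2 fold change was −0.50 (SE 0.143, adjusted p = 0.090) against control, −0.72 (adjusted p = 0.0083) against Naive and −0.24 (adjusted p = 0.552) against Sham. In Sham against Naive it was −0.48 (SE 0.122, 95% CI −0.75 to −0.22, edgeR unadjusted p = 0.0017, adjusted p = 1.00), of a size like that of SAH against control. The call against control was lost without SAH mouse 2, 3 or 4, Sham mouse 6, or Naive mouse 8 or 9, with adjusted p between 0.110 and 0.187.

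Cdkn1a (p21), the inhibitor induced by p53 and by stress, did not pass the test. It had 8.08, 8.61, 67.6 and 8.95 CPM in SAH mice, 8.54, 5.66 and 8.05 CPM in Sham mice and 8.46, 11.2 and 6.54 CPM in Naive mice. SAH mouse 3, which was also the highest in choroid plexus genes, alone was high, and the other 3 lay within the range of the controls. SAH mouse 4 and Sham mouse 7, the next highest in choroid plexus genes, had 8.95 and 8.05 CPM of Cdkn1a. The part of choroid plexus tissue in the Cdkn1a values was not tested. The log2 fold change was 1.51 (SE 0.533, adjusted p = 0.164), and it was 0.096 with SAH mouse 3 left out. It passed the threshold with SAH mouse 1 left out (1.79, adjusted p = 0.081) or SAH mouse 2 left out (1.80, adjusted p = 0.079). SAH mouse 3 was also the lowest of the 10 mice for 26.3% of all genes tested, and for 9 of the 38 members, Ccnd2, Mcm6 and Mki67 among them. Cdkn1b (p27), another such inhibitor, had 39.7, 39.5, 40.0 and 42.5 CPM in SAH mice, 38.7, 39.6 and 45.0 CPM in Sham mice and 41.2, 44.7 and 43.5 CPM in Naive mice. The means were 40.4 ± 1.41 CPM in SAH and 42.1 ± 2.65 CPM in control, a log2 difference of −0.06 (95% CI −0.17 to 0.058, adjusted p = 0.616).

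**Figure D4:**
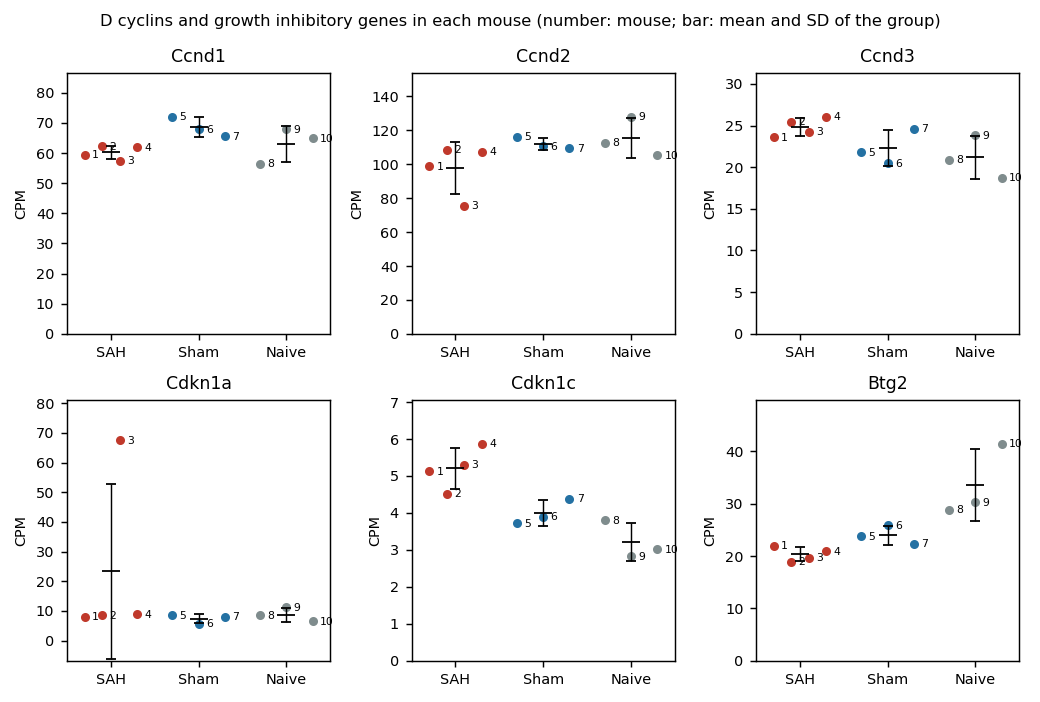
Levels of the 3 D cyclins, of the inhibitors Cdkn1a and Cdkn1c and of Btg2 in each mouse, in CPM, with the number of the mouse beside its point and the mean and SD of each group in black. Cdkn1c is above and Btg2 below the controls in all 4 SAH mice, and Cdkn1a is high in SAH mouse 3 alone, at 67.6 CPM.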

How the data were processed

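Whole hippocampi of 4 SAH, 3 Sham and 3 Naive mice were sequenced as rRNA-depleted, stranded total RNA in 50-base read pairs. The authors aligned the reads to mm9 with STAR at default settings, joined the lanes per mouse, and counted read pairs on exons by gene name with featureCounts 1.6.2, sense strand only, leaving out pairs that aligned to several places or fell on several genes. The deposited values are these raw counts per gene name, without normalization. Members with antisense neighbours were therefore counted by strand. Pairs of genes with near-identical sequence lose counts under this scheme.

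From the counts, CPM with TMM scaling, FPKM (CPM per kilobase of exon) and log2 fold changes were computed with edgeR 4.0.16 in R 4.3.3, after filterByExpr (minimum count 10, minimum total 15), by the quasi-likelihood test with Benjamini-Hochberg adjustment over all genes tested, at an adjusted p under 0.10. SAH was compared with Sham and Naive pooled. The 3 pairwise contrasts used 1 fit of the 3 groups. The standard error was the size of the log2 fold change divided by the square root of F. The code was tested on simulated data. DESeq2 1.42.0, DESeq2's size factors, library size alone, all genes with a count, genes with 10 or more counts in each mouse, a threshold of 0.05, Sham and Naive averaged, only the mice compared, and each mouse left out were tried.

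Libraries of a group differed by more than sampling noise in every pair. A count of 3 corresponded to 0.110 to 0.152 CPM. Intervals are for the log2 difference between groups, with a standard error that takes in the spread between mice. No batch or run date was given in the labels. Values in every mouse are given for the 8 tested members with the largest fold change, for Mki67, Top2a, Cdk1, Pcna and the D cyclins, and, from the other cell cycle lists, for genes past the threshold and Cdk4, Cdk6, Cdkn1a, Cdkn1b and Rb1. A member past the threshold, or without overlap between SAH and control, would also have been named, and there was none. The members and lists were chosen with earlier results of these data known. A gene of 1 marker list is not reported here and was left out of that list's values.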

Additional observations from a re-analysis of the deposited data

Results flagged for a closer look

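Within the 4 SAH mice, 5 genes had 1 mouse farther from the others than Dixon's 95% limit. The 98 tests covered members, regulators and summed levels of groups of members, in groups of 4 or 6 mice. No summed level was flagged. Chance alone gives about 1 in 20, and 5 of 98 is about that share. Ccnb2 stood at 1.40 CPM in SAH mouse 1 and at 0.520 to 0.662 CPM in the others, and Bub1 at 0.677 CPM in SAH mouse 1 and at 0.200 to 0.257 CPM in the others. In SAH mouse 3, Mcm6 stood at 14.1 CPM (19.1 to 19.9 CPM in the others), Pcna at 33.5 CPM (31.2 to 31.4 CPM) and Cdkn1a at 67.6 CPM (8.08 to 8.95 CPM). For Pcna the distance was small in size, and its SAH mice all lay within the range of the controls.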

How the results depend on the processing

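No member was called in any of the 4 comparisons under any alternative. The lowest adjusted p of a member was 0.109 (Ccnd3, SAH against control, without Sham mouse 7), 0.282 (Ccnd1, SAH against Sham, without SAH mouse 2), 0.106 (Bub1b, SAH against Naive, without Naive mouse 8) and 0.988 (Mcm3, Sham against Naive, only the mice compared). With each mouse left out in turn, the median log2 fold change over the members ran from −0.068 to 0.12 in SAH against control, from −0.040 to 0.19 in SAH against Sham, from −0.094 to 0.052 in SAH against Naive and from −0.16 to −0.0077 in Sham against Naive. Of the 37 tested members, 15 changed sign in SAH against control with at least 1 mouse left out, 9 of them (6 mitotic) without SAH mouse 1. Among the 14 members with values in every mouse these were Mki67 (−0.27 to 0.51), Top2a (−0.36 to 0.35), Ccnb2 (−0.020 to 0.55) and Pcna (−0.020 to 0.028). Mki67, Top2a and Ccnb2 did so without SAH mouse 1. Calls of Cdkn1c, Btg2 and Cdkn1a that changed with a mouse left out stand beside their values. Members at an unadjusted p under 0.05 numbered 2 to 6 in SAH against control, 0 to 4 in SAH against Sham and 1 to 4 in SAH against Naive with a mouse left out. Counts of all genes called moved by more than 1.5 times in SAH against Sham (109 genes, 300 by DESeq2, 182 with no filter, 12 with only the mice compared, 6 to 215 with a mouse left out), in SAH against Naive (453, 735 by DESeq2, 282 with only the mice compared, 109 to 683 with a mouse left out), in Sham against Naive (1, 2 by DESeq2, 3 with only the mice compared, 0 to 1) and, with a mouse left out, in SAH against control (701, 308 to 1093). The cause of these differences was not tested. No paired analysis was possible because the groups share no replicate numbers. A 2-fold difference lay within the 95% interval of Melk, Bub1, Cdc20, Ccnb1, Ccnb2, Cdk1 and Bub1b, which had between 1 and 100 counts per mouse.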
